A study of Mus musculus with 5 samples.

Results

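The microRNAs miR-150 and miR-181 were followed through T cell activation with 3 probes, 1org-150, 1org-181 and 2org-181b, out of 171 microRNA probes and 178 probes in all on each array. The probes were taken by their IDs, whose numbers are those of the 2 microRNAs. Mouse CD4+25- T cells, the helper T cells that remain when cells with CD25 on the surface are set aside, had been activated overnight, for 3 days or for 10 days. Total RNA of each activated population shared a 2-channel array with total RNA of CD4+25- T cells with no activation on the label, called naive here after the series title. One array held overnight RNA in Cy5, and days 3 and 10 each had 2 arrays, with the activated RNA in Cy5 on one and in Cy3 on the other. All 5 ratios therefore share the naive state as their denominator. The labels give neither mouse strain and age nor the means of activation and culture, and they leave unsaid whether the arrays of a dye pair carried separate RNA extracts.

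MicroRNAs are short RNAs that pair through their seed, the bases near the 5′ end, with messenger RNAs and lower their output. MiR-150 is abundant in resting mature B and T cells and is scarce in their early precursors, and the transcription factor Myb is a well-studied target. MiR-181a is high in immature thymocytes, where it lowers several phosphatases that dampen signals from the T cell receptor and so raises the cells' sensitivity to antigen.

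The mature miR-181 sequences are shown because 4 microRNAs of the family have one seed, so that probes for them address close relatives. They come from RefSeq (GRCm38.p6), 5′ to 3′, with the seed (bases 2 to 8) in capitals.
mmu-miR-181a-5p: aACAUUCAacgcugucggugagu
mmu-miR-181b-5p: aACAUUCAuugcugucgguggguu
mmu-miR-181c-5p: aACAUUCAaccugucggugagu
mmu-miR-181d-5p: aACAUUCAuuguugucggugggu
mmu-miR-181a-1-3p: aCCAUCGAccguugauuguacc
The first 4 names are the only mature mouse microRNAs with the seed ACAUUCA in that table. Counted from the 5′ end, miR-181b differs from miR-181a by A9U, C10U and A21G and by 1 more base at its 3′ end, and miR-181c is 1 edit from miR-181a. The last sequence is the opposite arm of the Mir181a-1 hairpin and has another seed. It matters here because RefSeq lists miR-213 as an older name of Mir181a-1, so that probe 2org-213 carries the number of this arm. How far the probes for miR-181a, miR-181b and miR-181c bind each other's target was not tested.

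In GRCm38.p6, the mature miR-181a-5p lies at chr1:137966468-137966490 and miR-181b-5p at chr1:137966650-137966673, both on the plus strand, in the hairpins of Mir181a-1 and Mir181b-1 with 97 bases between them and no other annotated gene over them. The second copies lie at chr2:38852741-38852763 and chr2:38853845-38853868, also on the plus strand, inside the annotated spans of Nr6a1 and Nr6a1os. MiR-181c-5p lies at chr8:84178924-84178945 on the minus strand, with 85 bases between the Mir181c and Mir181d hairpins. Since miR-181a-5p and miR-181b-5p each come from 2 hairpins, their probes cannot separate the chromosome 1 copy from the chromosome 2 copy. Mir150 lies on chromosome 7, with no annotated gene over it. No member had a gene in GEO's probe annotation, which named 1 gene for 61 of the 178 probes. The number in the ID is therefore the basis for each name.

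The values are the deposited log ratios, read as log2. Ratios of the 2 arrays with activated RNA in Cy3 were multiplied by -1, so that values below 0 stand for less of the microRNA in activated cells. This takes Cy5 over Cy3 as the deposited direction, which is likely and not stated, and with Cy3 over Cy5 every direction below turns. Array medians over microRNA probes ran from -1.75 (overnight) to 1.42 (day 3, Cy3), and values centred on these medians are given beside the deposited ones. A value after ± is the distance of either array of a pair from the pair mean (n = 2 arrays). The arrays give ratios and no levels, so the labelled cell type could not be checked against its markers, and a smaller share of cells with the microRNA cannot be told apart from less of it per cell.

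**Figure D1:**
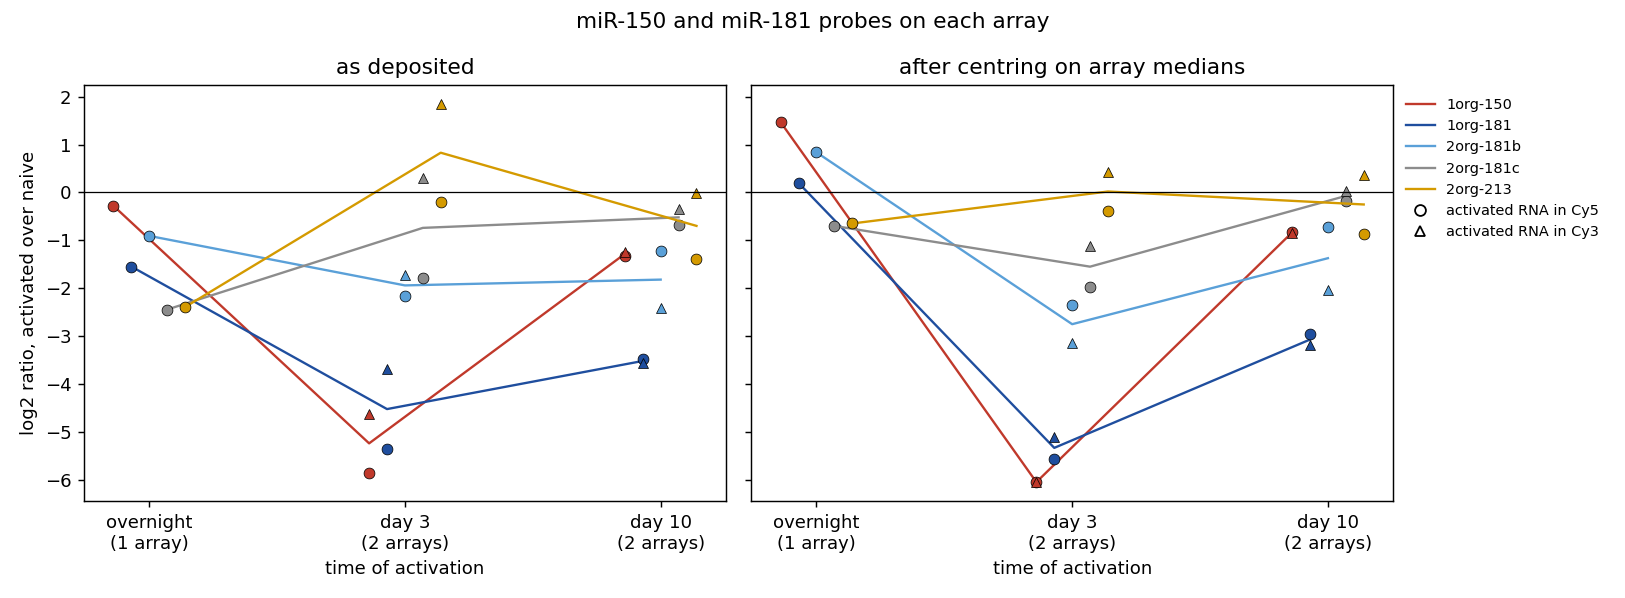
Log2 ratio of activated over naive RNA (y axis) at the 3 times (x axis) for the 3 member probes and the 2 further probes of the miR-181 hairpins, as deposited on the left and after centring each array on its microRNA median on the right. Points are single arrays, circles with the activated RNA in Cy5 and triangles with it in Cy3, and lines join the means of the times. Probe 1org-150 goes from -0.28 overnight to -5.24 at day 3 and -1.28 at day 10 as deposited, while 1org-181 is at -4.53 and -3.52 on days 3 and 10.

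At day 3, all 3 probes were lower in activated than in naive cells. The miR-150 probe 1org-150 stood at -5.86 on the Cy5 array and -4.63 on the Cy3 array, a mean of -5.24 ± 0.61 or 37.9-fold lower. It was the lowest of the 171 microRNA probes on both arrays. The miR-181 probe 1org-181 stood at -5.37 and -3.69, a mean of -4.53 ± 0.84 or 23.1-fold lower. It ranked 2 and 3 from the lowest. The miR-181b probe 2org-181b stood at -2.16 and -1.73, a mean of -1.94 ± 0.21 or 3.85-fold lower, with ranks of 15 and 17. The pairs of 1org-150 and 1org-181 overlapped, and neither overlapped that of 2org-181b.

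By the size rule, which asks for a mean of 1 or more away from 0 (2-fold) and for arrays that agree in sign, 3 of 3 members were lower at day 3, where 12.9% of all microRNA probes were lower. The limma fit over the 5 arrays, with a term for each time and one for dye, also called 3 of 3 lower (12.9% of all probes). Its Benjamini-Hochberg adjusted p was 2.1e-21 for 1org-150, 1.1e-17 for 1org-181 and 9.9e-05 for 2org-181b. This fit has 1 residual degree of freedom and gave every probe the same SE (0.45), so the size of these p-values rests on a spread pooled over probes. Without the dye term the limma adjusted p was 0.004, 0.0045 and 0.031, and 11.1% of all probes were called lower. With the dye term, the spread is only how far the difference within the day 3 pair departs from that within the day 10 pair. Without it, the spread is how far the arrays of a pair differ. Either may be technical error alone, and both leave out differences between cultures.

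Centring each array on its microRNA median put 1org-150 at -6.06 and -6.05 on the 2 day 3 arrays, which then differed by far less than as deposited, while the pair of 2org-181b moved apart, from ± 0.21 to ± 0.40. The centred mean was -6.05 for 1org-150, -5.34 for 1org-181 and -2.75 for 2org-181b, so 3 of 3 members were lower on this scale too, by the size rule (19.9% of all probes) and by the fit (21.1%). Centring on the 7 transfer RNA and small nuclear RNA probes instead gave -3.59, -2.87 and -0.29. On that scale 2org-181b was thus under 2-fold at day 3, while the other 2 members were lower by more than 2-fold under each centring.

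As deposited, the other probes of the miR-181 hairpins did not pass the test at day 3. Probe 2org-181c stood at -1.78 on the Cy5 array and at 0.30 on the Cy3 array of day 3, a mean of -0.74 ± 1.04 on opposite sides of 0 (limma adjusted p = 0.14). After centring it was at -1.55 (limma adjusted p = 0.0003). Probe 2org-213, which carries the number of the opposite arm of the Mir181a-1 hairpin, stood at -0.19 and 1.85, a mean of 0.83 ± 1.02 (limma adjusted p = 0.1). After centring it was at 0.02. Within each day 3 array 1org-181 ranked below 2org-181b, 2org-181c and 2org-213.

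**Figure D2:**
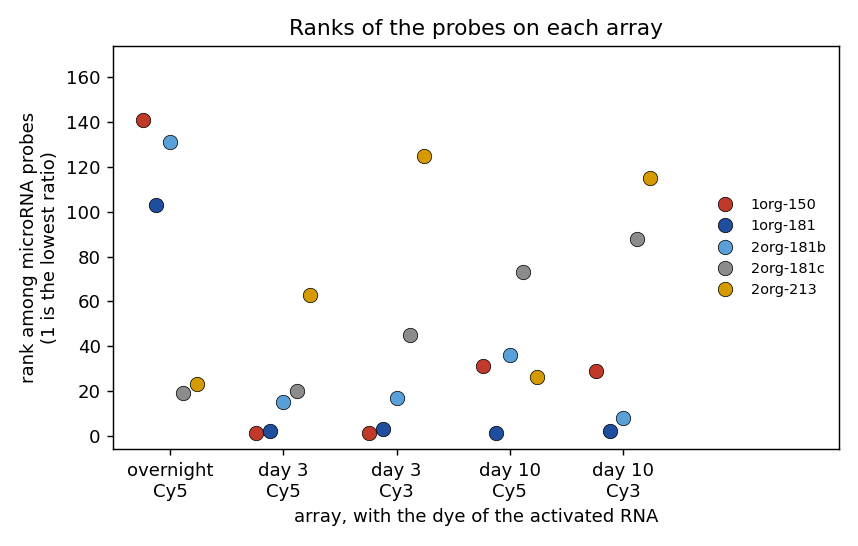
Rank of each probe by its log2 ratio among the 171 microRNA probes (y axis, 1 is the lowest) on each of the 5 arrays (x axis, with the dye of the activated RNA). Centring does not move ranks. Probe 1org-150 is 31st from the highest overnight, has rank 1 on both day 3 arrays, and ranks of 31 and 29 at day 10, while 1org-181 has ranks of 1 to 3 on all 4 arrays of days 3 and 10.

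At day 10, 1org-150 was closer to its naive level than at day 3, and 1org-181 was the lowest of the members. Probe 1org-150 stood at -1.33 on the Cy5 array and -1.24 on the Cy3 array, a mean of -1.28 ± 0.05 or 2.44-fold lower. Its ranks were 31 and 29. Probe 1org-181 stood at -3.48 and -3.57, a mean of -3.52 ± 0.05 or 11.5-fold lower. It ranked 1 and 2. Probe 2org-181b stood at -1.23 and -2.42, a mean of -1.82 ± 0.59 or 3.54-fold lower, with ranks of 36 and 8. Both arrays of 1org-181 lay below all those of the other members. Both arrays of 1org-150 lay inside the range of the 2org-181b pair, so these 2 probes overlapped at day 10.

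All 3 members were at least 2-fold lower at day 10 by the size rule, where 17% of all probes were lower, and 3 of 3 by the limma fit over 5 arrays (11.7% of all probes). The limma adjusted p was 0.032 for 1org-150, 1.7e-11 for 1org-181 and 0.0011 for 2org-181b. Only 1org-181 stayed past the threshold as deposited, after centring and without the dye term. After centring 1org-150 was at -0.84 (limma adjusted p = 0.12), under 2-fold, and without the dye term its limma adjusted p was 0.27. For 2org-181b the value after centring was -1.38 (limma adjusted p = 0.0039), and without the dye term its limma adjusted p was 0.17. After centring 1org-181 was at -3.08. After centring 2 of 3 members were thus lower, by the size rule (4.09% of all probes) and by the fit (2.92%), and without the dye term 1 of 3 (0.585%). Probes 2org-181c (-0.52 ± 0.17) and 2org-213 (-0.70 ± 0.68) were under 2-fold at day 10.

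**Figure D3:**
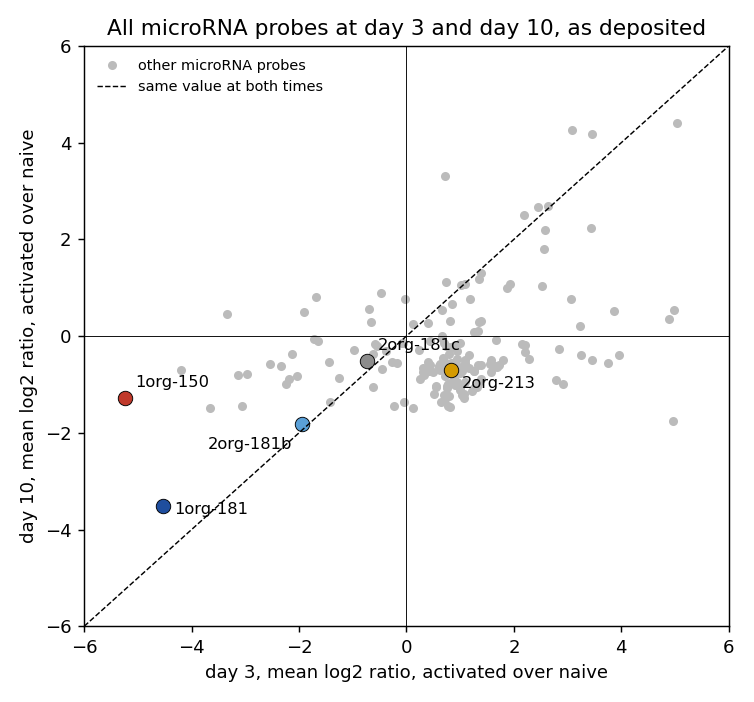
Mean log2 ratio of activated over naive RNA at day 3 (x axis) and day 10 (y axis) for the 171 microRNA probes, as deposited, with the members and the other miR-181 hairpin probes in colour. The dashed line marks the same value at both times. Probe 1org-150 lies far above the line (-5.24 and -1.28), 2org-181b lies on it (-1.94 and -1.82), and 1org-181 lies below all other probes on the y axis.

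Between days 3 and 10, 1org-150 rose, and the 2 miR-181 probes passed the test only on the scale centred on microRNA medians. The difference for 1org-150 was 3.96 on the log2 scale, or 15.6-fold, with 95% limits of 2.72 and 5.20 in the limma fit (adjusted p = 8.1e-08, or adjusted p = 0.028 without the dye term, where 1.75% of all probes were higher). The 2 pairs did not overlap, and the difference was 5.22 after centring and 2.91 after centring on the transfer RNA and small nuclear RNA probes. For 1org-181 the difference was 1.01, with limits of -0.24 and 2.25 (limma adjusted p = 0.16). Its pairs did not overlap, so it met the size rule, but the result turned with the scaling: 2.26 after centring (limma adjusted p = 0.00027) and -0.0435 after centring on the transfer RNA and small nuclear RNA probes. It also depended on single day 3 arrays, at 0.16 without the Cy5 array and 1.85 without the Cy3 array. For 2org-181b it was 0.12, with limits of -1.12 and 1.36 (limma adjusted p = 0.9), and 1.38 after centring (limma adjusted p = 0.042) but -0.93 on the other small RNA probes. Leaving out 1 array at a time put it between -0.47 and 0.72.

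As deposited, 2 of 3 members were higher at day 10 than at day 3 by the size rule (12.9% of all probes) and 1 of 3 by the fit (8.77%). After centring these were 3 of 3 in each, where 28.1% and 21.6% of all probes were higher. An exact permutation test of 2 arrays against 2 cannot give a 2-sided p below 0.333, so none was used.

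The share of the day 3 loss made up by day 10, on the log2 scale, was larger for the miR-150 probe. For 1org-150 it was 75.5%, and from 71.2% to 78.9% over the 4 combinations of a day 3 with a day 10 array. For 1org-181 it was 22.2% (3.17% to 35.3%). For 2org-181b it was 6.23% (-39.7% to 43.1%), a range that holds a further loss. After centring the shares were 86.2% (85.9% to 86.5%), 42.4% (37.6% to 46.8%) and 50.1% (13.7% to 77.3%). The combinations share arrays and are no replicates. On both scales the range of 1org-150 lay above those of the miR-181 probes.

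Differences between probes on the same array do not move with centring. Probe 1org-150 minus 1org-181 was -0.49 and -0.95 on the day 3 arrays and 2.14 and 2.33 on the day 10 arrays. The means of -0.72 ± 0.23 and 2.24 ± 0.09 differed by 2.95, and the pairs did not overlap. Thus 1org-150 was the lower of the 2 at day 3 and the higher at day 10, in ratio to naive cells, on every array. Of the 170 other microRNA probes, 5.29% rose against 1org-181 by at least 2-fold with no overlap. Probe 2org-181b minus 1org-181 was 3.21 and 1.96 at day 3 and 2.25 and 1.15 at day 10. It was above 0 on each of these arrays, and its pairs (2.58 ± 0.63 and 1.70 ± 0.55) overlapped. The miR-181 probe was therefore lower than the miR-181b probe, in ratio to naive cells, on all 4 arrays, and the gap did not differ between days beyond the spread of the pairs.

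**Figure D4:**
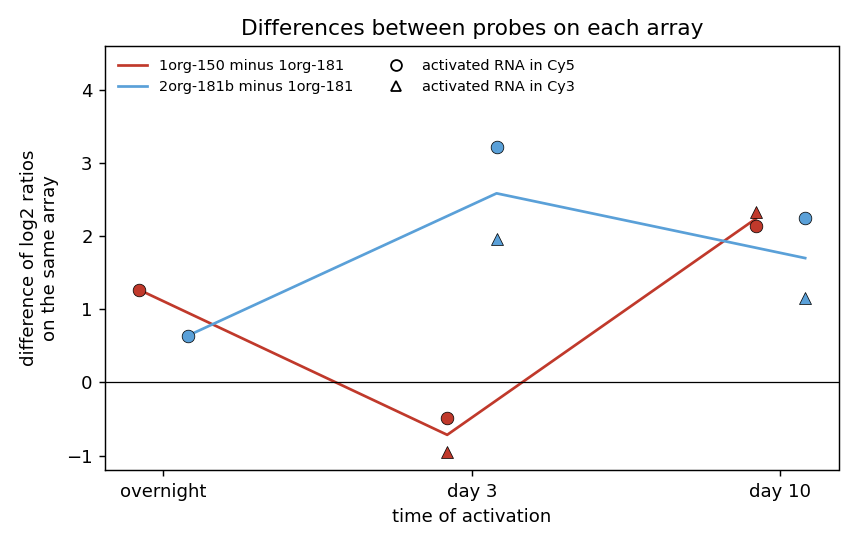
Difference between the log2 ratios of 2 probes on the same array (y axis) at the 3 times (x axis), for 1org-150 minus 1org-181 and for 2org-181b minus 1org-181. Circles are arrays with the activated RNA in Cy5 and triangles those with it in Cy3, and lines join the means of the times. The first difference is -0.49 and -0.95 at day 3 and 2.14 and 2.33 at day 10, while the second is above 1 on all 4 of these arrays.

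Overnight, the 3 members stood closer to 0 than at day 3, on a single array without its dye swap. Probe 1org-150 stood at -0.28, 2org-181b at -0.91 and 1org-181 at -1.55. By the size rule only 1org-181 was lower, where 73.1% of all microRNA probes were lower on this array. The array median was -1.75, so all 3 lay above it, as the 31st, 41st and 68th highest of 171 in the same order. After centring they stood at 1.47, 0.84 and 0.20. Each probe's dye effect, the part of a ratio that stays with the dye when the RNAs are exchanged, was taken from the deposited day 3 and day 10 pairs. Taken this way, it also holds the offset between the array medians of a pair, which were 0.20 and 1.42 at day 3. With this dye effect taken off the deposited overnight values, the 3 members stood at 0.05, -1.10 and -1.15. For 1org-150 this dye effect was -0.61 at day 3 and -0.05 at day 10, and for 1org-181 it was -0.84 and 0.05. The correction thus differs with the pair it is taken from. After centring, which removes the offset, the arrays of 1org-150 lay ± 0.0025 (day 3) and ± 0.018 (day 10) from the pair mean. For 1org-181 this was ± 0.23 and ± 0.11. With values and dye effect both centred, the overnight values were 1.46 for 1org-150, 0.31 for 2org-181b and 0.26 for 1org-181. Probes 2org-181c (-2.45) and 2org-213 (-2.40) lay below the median overnight, at ranks of 19 and 23.

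Over the 3 times as 3 values tested against 0 with limma, none of the members passed after Benjamini-Hochberg adjustment. The mean was -2.27 for 1org-150 (adjusted p = 0.52), -3.20 for 1org-181 (adjusted p = 0.11) and -1.56 for 2org-181b (adjusted p = 0.77), and 0% of all probes passed. At an unadjusted threshold of 0.05 limma had 8 probes lower and 3 higher. Without the overnight array, 1org-150 (-3.26, limma adjusted p = 0.025) and 1org-181 (-4.03, limma adjusted p = 0.0031) passed and 2org-181b did not (-1.88, limma adjusted p = 0.39), with 1.17% of all probes called lower. Without the day 3 Cy3 array 1org-181 passed as well (-3.48, limma adjusted p = 0.022). The run without the overnight array has 1 residual degree of freedom. Both runs gave every probe the same SE (0.95 and 0.90), as did the run on all 3 times (0.93). Their p-values thus rest on a spread pooled over probes, with the times as replicates. A t test on all 3 times without moderation across probes gave an adjusted p of 0.84 for each member. As deposited the 3 members were below 0 on all 5 arrays, as were 10.5% of microRNA probes. After centring none of the 3 was, against 5.26% of microRNA probes, since each lay above the overnight median.

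The probes with the most similar course were sought by the root mean square difference of centred log2 ratios over the 5 arrays. For 1org-150 these were 1org-7c (1.18), 1org-26a (1.37) and 1org-7b, annotated as let-7b (1.40), where the median over all other probes was 4.01. For 1org-181 they were 1org-7c (1.41), 1org-150 (1.60) and 1org-7b (1.71). For 2org-181b they were 1org-30d (0.65), 1org-142-s (0.67) and 1org-7b (0.83), against a median of 2.18. Probe 2org-181b came 6th in likeness to 1org-181 (2.05), 2org-181c 23rd (3.09) and 2org-213 77th (3.88) of 170 probes. The probes nearest to 1org-181 have the numbers of let-7, a family known for restraining growth, and of miR-150. Sequences of microRNAs with the numbers of 3 of these probes are shown to let their seeds be set against ACAUUCA.
mmu-let-7c-5p: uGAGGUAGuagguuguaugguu
mmu-let-7b-5p: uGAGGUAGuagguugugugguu
mmu-miR-26a-5p: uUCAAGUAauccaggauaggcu
The let-7 pair shares 1 seed and miR-26a has another. Among these neighbours 1org-26a came closest to the size of the return of 1org-150. It stood at -4.19 ± 0.25 at day 3 and -0.71 ± 0.06 at day 10, a difference of 3.48. Probe 1org-7c stood at -3.66 ± 0.67 and -1.48 ± 0.03, a difference of 2.18. Overnight, 1org-26a was at -2.78 and 1org-7c at -1.63.

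A list set up for resting lymphocytes, taken by number (let-7, miR-15, miR-16, miR-26, miR-29, miR-30, miR-139, miR-142, miR-195 and miR-223), gave 30 probes beside the members. Among the 30 is 2org-7 (0.67 at day 3 and 0.54 at day 10), whose number 7 has no letter, so it may not be a let-7 probe. Probe 2org-223 of this list is also used below as a myeloid one. The list was chosen with earlier results of these data known, so its counts are a description and no test. At day 3, 18 of the 30 were at least 2-fold lower and 1 higher (2org-139, 1.04 ± 0.48), around a median of -1.56 where all probes had 0.83. Of all probes 12.9% were lower and 38% higher. The limma fit called the same numbers. At day 10, 5 were lower and none higher by the size rule, and 4 and none by the fit, around a median of -0.59 where all probes had -0.56. These counts are near the shares of all probes called lower, 17% and 11.7%. Between the times 16 of the 30 met the size rule upward and 1 downward (12 and 1 by the fit), with a median difference of 1.24 where all probes had -1.22. Of all probes 12.9% were higher and 41.5% lower by the size rule, and 8.77% and 43.9% by the fit. After centring 24 were lower at day 3 (19.9% of all probes) and 23 were higher at day 10 than at day 3 (28.1%). At day 10 itself 2 were lower (4.09%) and 2 higher (14.6%) on that scale. Probe 1org-195, at 0.69 ± 0.34 and -0.14 ± 0.16 on days 3 and 10, stood apart from 1org-26a and 1org-7c in this list.

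The list of microRNAs linked to lymphocyte activation had 16 probes and was also chosen with earlier results of these data known. Its counts are likewise a description and no test. At day 3, 15 of them were 2-fold higher or more and none lower, around a median of 2.93, where 38% of all probes were higher. The highest were 2org-210 (5.03 ± 0.09), numbered as the hypoxia-induced miR-210, and miR-31 (1org-31, 4.99 ± 0.69). The lowest were 1org-146 (0.70 ± 0.07) and miR-27a (1org-27a, 1.36 ± 0.21). At day 10, 7 were higher (9.94% of all probes) and 2 lower (17%). As deposited, 8 were lower at day 10 than at day 3 (41.5% of all probes) and none higher (12.9%). The limma fit called 15 higher at day 3 (39.2% of all probes). It called 6 higher (7.02%) and 2 lower (11.7%) at day 10, and 8 lower between the times (43.9%). After centring, 7 were lower and 4 higher between the times by the size rule, around a median of -0.14. Of all 171 probes 23 were lower and 48 (28.1%) higher on that scale, around a median of 0.04.

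Probes for microRNAs of other cells and tissues were near or above 0 at day 3 as deposited, as was the median of all probes (0.83). At day 3 as deposited, none of 9 epithelial and liver, 5 neural, 6 muscle and stromal, and 9 embryonic stem cell probes was lower, with medians of 0.68, 0.91, 0.92 and 1.08. Of all probes 12.9% were lower. After centring the medians were -0.13, 0.10, 0.11 and 0.27, and 1 epithelial and liver probe was lower (19.9% of all probes). The values were -0.24 ± 1.12 for 2org-223, numbered as a myeloid microRNA, and 1.03 ± 0.50 for 1org-144, an erythroid one. At day 10, 3, 3, 1 and 4 probes of these lists were lower (17% of all probes) and none higher, and after centring none was lower or higher. As deposited, 2org-223 was at -1.44 ± 0.17, and 1org-144 at -0.66 ± 0.72. The part of a change in cell make-up in the values of the members was not tested.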

How the data were processed

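Two-colour arrays measured microRNAs in total RNA of mouse T cells. The authors deposited 1 log ratio per probe and array, read here as log2 values since the table states no base (scanner, image analysis and normalization: not given in the sources used here). Both pairs' deposited ratios correlated at -0.66 (day 3) and -0.43 (day 10) over 171 microRNA probes, so ratios run in 1 dye direction, and arrays with activated RNA in channel 1 were multiplied by -1. Arrays were grouped by their channel labels. A pair was averaged, and the size rule needed a mean of at least 1 from 0 with the same sign on both arrays, or for day 10 against day 3 a difference of at least 1 with no overlap. Limma 3.58.1 in R 4.3.3 was used with lmFit and eBayes, 2-sided, with Benjamini-Hochberg over 171 probes and a threshold of 0.05. It was fitted over 5 arrays with time and dye terms, and over 3 time values against 0. Both fits were also run on simulated data. These gave all probes and arrays the same spread and no median offsets, so they cannot test the pooled spread. Alternatives were 2 centrings, equal spread, no dye term, no moderation, and leaving out arrays. The number of arrays limits the precision. Named probes were the members, all probes numbered as miR-181, the 3 nearest in course, and the 2 lowest and 2 highest of each list at day 3 (in the lists of other tissues only medians and counts are given). Probe 2org-213 was chosen after its values were seen. Members, lists and rules were chosen with earlier results of these data known. Python 3.11.15 was used for the rest.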

Additional observations from a re-analysis of the deposited data

Results flagged for a closer look

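The change of 1org-150 from naive cells differed between days 3 and 10, by 3.96 on the log2 scale (limma over 5 arrays, adjusted p = 8.1e-08), with higher values on both day 10 arrays than on both day 3 arrays. Probe 2org-213 differed the other way, by -1.53 (limma adjusted p = 0.033), with overlapping pairs. After centring this difference was -0.27 (limma adjusted p = 0.76), and without the dye term its adjusted p was 0.29.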

How the results depend on the processing

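Centring each array on its microRNA median gave 2org-181b -2.75 at day 3. At day 10 it gave 1org-150 -0.84 (limma adjusted p = 0.12) and 1org-181 -3.08. Between the days it gave 5.22 for 1org-150, 2.26 for 1org-181 (limma adjusted p = 0.00027) and 1.38 for 2org-181b (limma adjusted p = 0.042). Overnight it gave 1.47 for 1org-150, 0.20 for 1org-181 (turned) and 0.84 for 2org-181b. Centring on the 7 other small RNA probes gave, for 1org-150, 1org-181 and 2org-181b in this order, -3.59, -2.87 and -0.29 at day 3, 0.92, -0.35 and 0.29 overnight, and 2.91, -0.0435 (turned) and -0.93 between the days. At day 10 it gave -0.68 for 1org-150 and -2.92 for 1org-181. With arrays centred and brought to the same spread, 2org-181b was at -2.40 at day 3, 1org-150 and 1org-181 at -0.99 and -3.66 at day 10, and the 3 members at 1.88, 0.25 (turned) and 1.08 overnight. On that scale 1org-150 minus 1org-181 was 2.67 at day 10 and differed by 3.31 between the days. Without the dye term, the limma fit no longer called 1org-150 (-1.28, adjusted p = 0.27) and 2org-181b (-1.82, adjusted p = 0.17) at day 10. Over all times, 5 arrays as replicates with a dye term gave -2.71 for 1org-150 (limma adjusted p = 0.0048) and -3.55 for 1org-181 (limma adjusted p = 4.3e-05). That run counts the arrays of a dye pair as separate replicates, though they may hold the same RNA extracts, so its p-values can be too small. With pairs averaged the limma adjusted p was 0.52 and 0.11. Leaving out 1 array at a time gave means over the times from -3.26 to -2.06 for 1org-150, from -4.03 to -2.92 for 1org-181 and from -1.88 to -1.36 for 2org-181b, and from -1.10 to 0.0645 for 2org-213 (turned without the overnight array). The cause of these shifts was not tested. Counts over all probes moved with centring from 22 to 34 lower at day 3, 29 to 7 lower at day 10 and 22 to 48 higher between the days. Without 1 array of a pair, the fit over 5 arrays keeps no residual degrees of freedom and was not run. No paired analysis was possible because the labels give no replicate numbers shared between times. The direction of 1org-150 and 1org-181 at days 3 and 10, and of 1org-150 between them, held in all settings run. Whether any probe was above background is unknown, which limits every ratio.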
